A study of Mus musculus with 10 samples.

Results

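The enzymes that write and erase histone methyl marks, and those that remove histone acetyl groups, were followed in an RNA immunoprecipitation of mouse pituitary with antibodies to the RNA-binding proteins Musashi1 and Musashi2. Members were the protein-coding autosomal genes with symbols of the Kdm, Kmt, Setd, Ezh, Prmt, Hdac and Sirt families. These symbols matched 64 of the 55416 rows of the count table. A pair of noncoding genes (Kdm4dl and Kdm6bos) and 5 genes on the sex chromosomes (Hdac6, Hdac8, Kdm5c, Kdm5d and Kdm6a) fell outside the rule, which left 57 members. All 57 passed the filter on low counts, by which 20550 genes were tested.

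Pituitaries came from control mice of 8 to 10 weeks, of a sighted FVB strain (FVB.129P2-Pde6b+Tyrc-ch/Ant). Each lysate pooled 6 glands of 1 sex and was divided between rabbit IgG, the control precipitate, and a mixture of both Musashi antibodies, so RNA bound to either Musashi protein cannot be told apart. Data from 5 IgG and 5 Musashi IP libraries were analysed, made from lysates 2, 5 and 6 (female) and 3 and 7 (male). All groups share genotype and treatment, a ratio of Musashi IP to IgG measures recovery with the antibody rather than expression, and no input library was used here.

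Histone lysine methyltransferases (Kmt, Setd and Ezh genes) and protein arginine methyltransferases (Prmt genes) add methyl groups to histones and to many other proteins. Lysine demethylases (Kdm genes) remove them, zinc-dependent deacetylases (Hdac genes) remove acetyl groups, and sirtuins (Sirt genes) remove acetyl and other acyl groups with NAD as a cosubstrate. Musashi proteins bind short U-rich elements in the 3′ UTRs of mRNAs and repress or activate their translation.

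Sites that match the Musashi element lay in most of these mRNAs. The element searched has 3 forms that start with G (GUAGU when it holds 1 U after the first base, GUUAGU when it holds 2 such U, and GUUUAGU when it holds 3) and the same forms with A as the first base. It was searched on the transcript's strand only, with overlapping matches counted separately, in the longest annotated 3′ UTR (GENCODE M21). One site is shown for the member with the highest ratio in each enzyme class that has a site, taking the site nearest the stop codon. The capitals mark the chosen element, and in Hdac11 another GUAGU overlaps its last bases.
Setd7: gcaguaucuccaGUAGUguugcuaauuuuu
Hdac11: cucagcuaacagGUAGUaguccugguaugg
Prmt5: accuagggcuacAUAGUgagacccugucuc
Kdm5a: accccaaugccuGUAGUuuccaacauggcc
Sirt1: uuguaacauugaAUAGUuuaaagcccucaa
The Setd7 site, on chromosome 3, begins 941 bases after the stop codon in a 3′ UTR of 5988 bases with 4 sites. The Hdac11 site, on chromosome 6, begins 451 bases after the stop codon in a 3′ UTR of 1428 bases with 4 sites. The Prmt5 site, on chromosome 14, is the single site in 608 bases. Its central 17 bases occur in 12 of 14106 3′ UTRs of tested protein-coding genes, its own included. The Kdm5a site on chromosome 6 is 1 of 8 in 5381 bases, and the Sirt1 site on chromosome 10 is 1 of 5 in 1631 bases. A match describes the letters only and does not show binding.

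A further pair of sites was chosen after the values were seen, because these 3′ UTRs hold many elements while their mRNAs did not pass the test.
Kdm7a: ggaaggcagaggGUAGUagaaccuuaaaaa
Hdac2: cugacuaguuaAUUUAGUuccccaagucuu
Kdm7a, a demethylase with a plant homeodomain finger, carries 31 sites in 6588 bases, and its log2 ratio was 0.22. Hdac2, a class I deacetylase of several corepressor complexes, carries 11 sites in 2153 bases, and its log2 ratio was -0.21.

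Depth and identity were checked before the members. Totals ran from 6673425 counts (IgG, lysate 3) to 13019326 (Musashi IP, lysate 6). CPM are counts scaled to a common library size. By its raw total, 1 count in the shallowest library is worth 0.15 CPM, and all other CPM given here are also scaled by edgeR's TMM factors. The Musashi IP library of lysate 6 also had the lowest normalization factor, 0.784. Pituitary identity was clear, since no hormone-cell marker was at 0 in any library, and Gh had at least 29516 counts and Prl at least 11357. Summed erythroid markers ran from 355 to 1156 CPM in IgG and from 216 to 602 CPM in Musashi IP, and all 3 fell. Summed immune markers ran from 34.7 to 45.7 CPM in IgG and from 19.6 to 37.7 CPM in Musashi IP, and 2 of 4 fell. Summed markers of stem or folliculostellate cells ran from 9.60 to 17.6 CPM in IgG and from 18.2 to 24.1 CPM in Musashi IP, higher in 5 of 5 lysates, with 1 of 3 called higher. Of 11 hormone-cell markers 3 were called higher and 0 lower, beside 25.7% higher and 4.01% lower among all protein-coding genes. Of 4 endothelial and 4 mural or fibroblast markers 0 were called, with median log2 ratios of -0.38 and -0.018. The 1 posterior-lobe marker tested was not called.

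Few of the enzyme mRNAs were recovered differently with the Musashi antibodies. Of 57 members 5 were higher in Musashi IP (8.77%), namely Setd7, Hdac11, Prmt5, Prmt8 and Setd3, and 4 were lower (7.02%), namely Hdac10, Prmt9, Kdm3a and Kmt2e. The other 48 did not pass edgeR's quasi-likelihood test at an adjusted p of 0.05. The background in the same comparison was 25.7% higher and 4.01% lower among 14202 protein-coding genes, and 18.5% higher and 8.4% lower among all genes tested. The higher share of the members was below both backgrounds, and the lower share lay between them in this fit. The members' median log2 ratio was -0.043, against 0.089 for protein-coding genes and -0.066 for all genes, and 26 of 57 lay above 0. The split of calls depended on the scaling: with library totals as the scale, which moved the median of all genes by -0.175, 3 members were higher and 15 lower (26.3%, against 19.8% of all genes lower and 14.5% of protein-coding genes). With protein-coding genes alone in the fit 4 were higher and 10 lower (17.5%, against 9.13% of the genes tested), and with length and GC offsets 3 were higher and 13 lower (22.8%, against 9.7% of all genes and 10.4% of protein-coding genes). The members' lower share was thus above both backgrounds under these 3 settings. It was also above both with DESeq2 size factors, with a mean of at least 2 CPM and without lysate 3 or 6. With no low-count filter it was below both (1.75%, against 3.93% of all genes and 1.92% of protein-coding genes). The same held without the lysate block and without lysate 5 or 7, where 0 members were lower. The members' median minus the protein-coding median was -0.132 as reported, -0.197 with length and GC offsets, -0.179 without lysate 2 and -0.0816 without lysate 6.

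**Figure D1:**
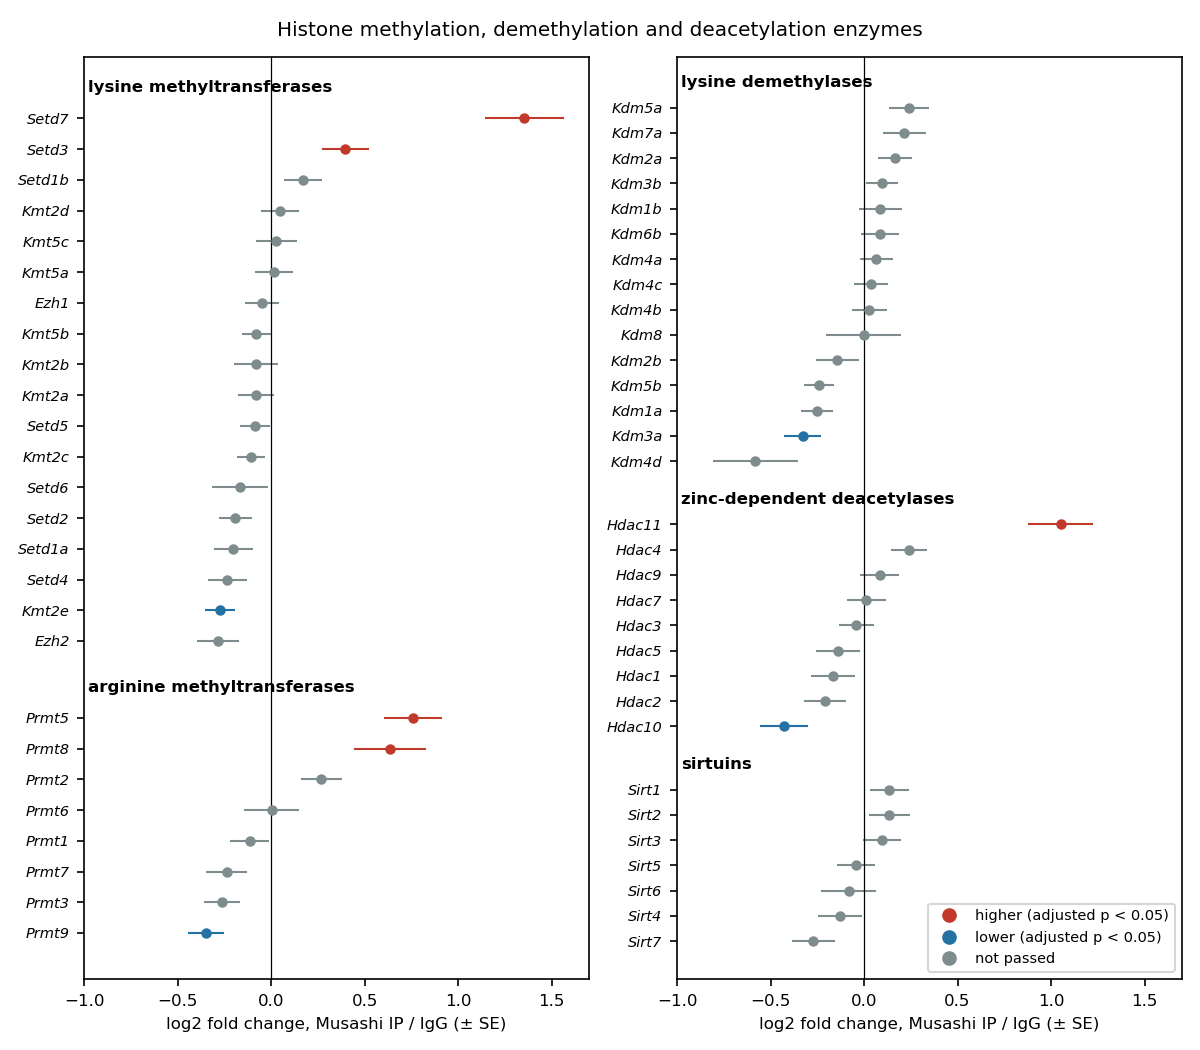
Log2 ratio of Musashi IP to IgG (horizontal axis) with its standard error for each of the 57 members, grouped by enzyme class; red points passed the test as higher, blue as lower, and grey did not pass. Setd7 (1.35) and Hdac11 (1.05) stand at the right, and 48 members did not pass.

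Among the 18 lysine methyltransferases 2 were higher, 1 was lower and 15 did not pass, with a median log2 ratio of -0.08. Setd7, which methylates histone H3 and several other proteins, had the highest ratio of all members. Its CPM in IgG were 272, 225, 215, 227 and 195 in lysates 2, 3, 5, 6 and 7, and in Musashi IP 523, 365, 611, 1168 and 475. All 5 Musashi IP libraries lay above all 5 IgG libraries, and that of lysate 6 was the highest. The means were 226.9 ± 28.4 and 628.5 ± 314.1 CPM (SD, n = 5 each), a log2 ratio of 1.35 ± 0.21 (SE; 2.56-fold, edgeR adjusted p = 0.00457). Without lysate 6 the log2 ratio was 1.11.

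Setd3, a SET-domain enzyme known as the histidine methyltransferase of actin, had 90.4, 87.2, 89.6, 80.7 and 91.1 CPM in IgG and 96.8, 98.1, 113, 148 and 129 CPM in Musashi IP, in the same order of lysates. The groups did not overlap, and the lowest Musashi IP values lay close to the IgG values. The log2 ratio was 0.40 ± 0.13 (1.32-fold, edgeR adjusted p = 0.0457). This call was lost in 9 of 14 alternative settings, among them leaving out lysate 3, 5 or 7, and without lysate 7 the ratio was 0.30 (edgeR adjusted p = 0.176).

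Kmt2e, a SET-domain relative of the mixed-lineage leukemia enzymes, was lower. It had 282, 351, 337, 318 and 393 CPM in IgG and 240, 311, 273, 242 and 326 CPM in Musashi IP. The groups overlapped, although each lysate had less in Musashi IP than in its own IgG library. The log2 ratio was -0.28 ± 0.08 (edgeR adjusted p = 0.0352).

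Kmt2a, which methylates lysine 4 of histone H3, had the highest level of all members per length, 42.3 ± 5.68 CPM per kb of exon in IgG (SD, n = 5). The IgG libraries held 623, 865, 672, 708 and 655 CPM, those of the Musashi antibodies 684, 790, 677, 530 and 652 CPM, and the groups overlapped. Its log2 ratio was -0.08 (edgeR adjusted p = 0.536). Kmt2d, Kmt2c, Kmt2e and Setd5 followed in level, at 37.0, 33.2, 32.2 and 31.6 CPM per kb of exon, which are levels in the control precipitate and not in the tissue.

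Ezh1 and Ezh2, the alternative catalytic subunits of Polycomb repressive complex 2 (PRC2), did not pass. Ezh1 had 103, 118, 108, 114 and 89.7 CPM in IgG and 98.8, 103, 119, 102 and 91.2 CPM in Musashi IP, with overlap and a log2 ratio of -0.05 ± 0.09 (edgeR adjusted p = 0.697). Ezh2 had 22.4, 17.9, 23.5, 27.8 and 29.0 CPM in IgG and 18.4, 16.9, 21.7, 18.8 and 22.6 CPM in Musashi IP, less in each lysate's Musashi IP. Its log2 ratio was -0.28 ± 0.11 (edgeR adjusted p = 0.092), and it passed as lower in 3 of 14 alternatives (library totals, a mean of at least 2 CPM, and length and GC offsets).

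Of the 8 arginine methyltransferases 2 were higher, 1 was lower and 5 did not pass. Prmt5, which makes symmetric dimethylarginine on histones and splicing proteins, had 31.0, 21.7, 28.7, 22.3 and 23.7 CPM in IgG. In Musashi IP it had 42.9, 29.96, 44.1, 61.5 and 40.4 CPM. The IgG library of lysate 2 lay above the Musashi IP library of lysate 3, and every lysate had more in Musashi IP than in its own IgG library. The log2 ratio was 0.76 ± 0.16 (1.69-fold, edgeR adjusted p = 0.0103).

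Prmt8, a membrane-anchored enzyme best known from brain, was sparse, with 26, 36, 13, 19 and 27 counts in IgG and 33, 53, 21, 47 and 81 in Musashi IP. The means were 3.04 ± 1.23 and 4.71 ± 1.79 CPM (SD, n = 5 each), and the groups overlapped. The log2 ratio was 0.64 ± 0.19 (edgeR adjusted p = 0.0396), a call lost in 10 of 14 alternatives, among them leaving out lysate 3, 5, 6 or 7. Prmt9, which methylates a splicing factor, was lower, with 44.5, 53.4, 38.1, 49.7 and 53.6 CPM in IgG and 37.8, 41.9, 32.8, 36.6 and 37.8 CPM in Musashi IP. Its groups overlapped, and its log2 ratio was -0.35 ± 0.10 (edgeR adjusted p = 0.0286). Prmt2, with the highest level of the class per length (9.62 CPM per kb in IgG), had 33.2, 35.5, 29.4, 33.6 and 30.8 CPM in IgG and 37.7, 39.4, 30.7, 50.9 and 39.0 CPM in Musashi IP. It was above its own IgG library in 5 of 5 lysates without passing (log2 ratio 0.27, edgeR adjusted p = 0.0993).

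**Figure D2:**
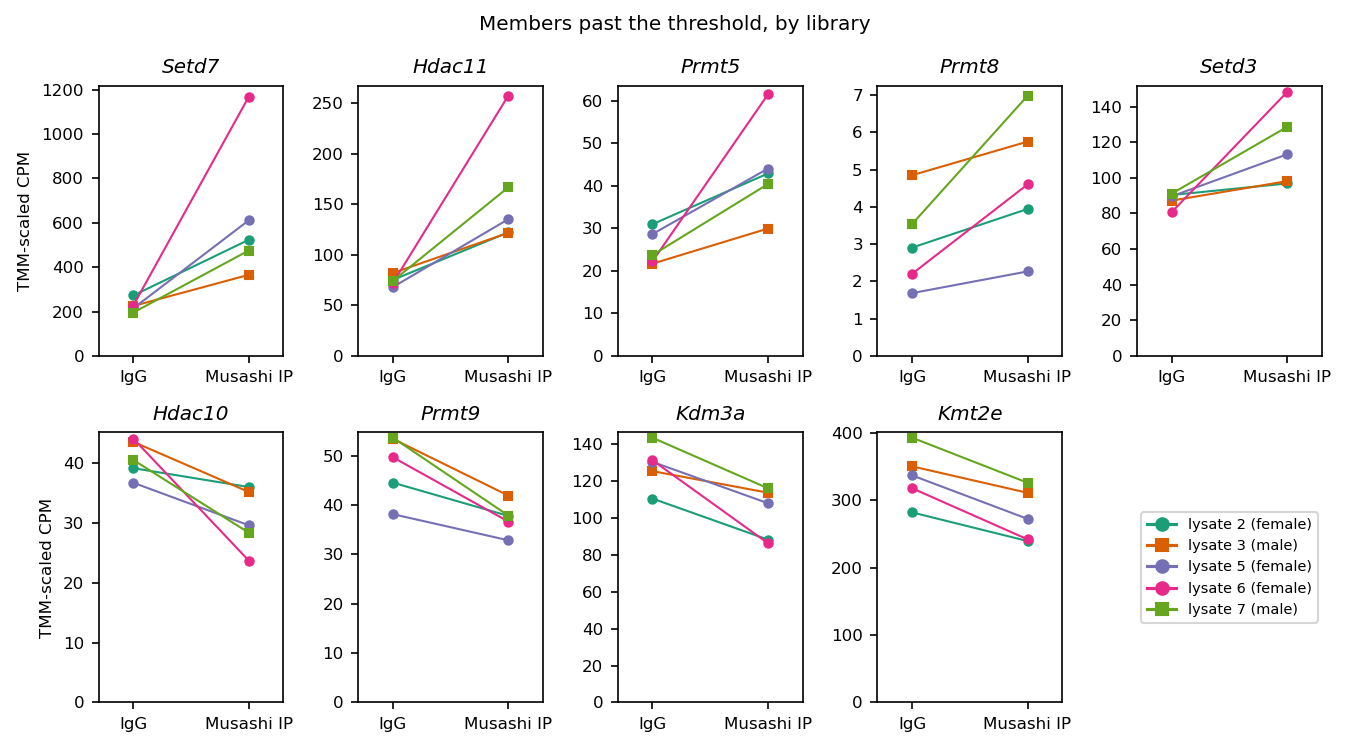
TMM-scaled CPM (vertical axes, each from 0) of the 9 members that passed the test in each IgG and Musashi IP library, with lines joining the libraries of 1 lysate, circles for female and squares for male lysates. In all 9 every line runs the same way, and the Setd7 library of lysate 6 reaches 1168 CPM.

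None of the 15 lysine demethylases was higher and 1 was lower, with log2 ratios from -0.58 to 0.24 and a median of 0.04. At an unadjusted p under 0.05 edgeR had 0 higher and 4 lower, and DESeq2 called 0 higher and 1 lower. Kdm3a, which demethylates lysine 9 of histone H3, had 111, 126, 131, 131 and 144 CPM in IgG and 88.4, 114, 108, 86.4 and 116 CPM in Musashi IP. The groups overlapped, and the log2 ratio was -0.33 ± 0.10 (edgeR adjusted p = 0.036). Kdm4a, the class's highest per length at 21.6 ± 2.49 CPM per kb of exon in IgG, had 126, 128, 127, 142 and 102 CPM in IgG and 146, 132, 133, 133 and 110 CPM in Musashi IP. Its log2 ratio of 0.07 turned below 0 in 6 of 14 alternatives and passed in none.

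Kdm1a, the flavin-dependent demethylase of the CoREST complex, and Kdm5b, which acts on lysine 4 of histone H3, lay just outside the threshold at log2 ratios of -0.25 and -0.24 (edgeR adjusted p = 0.057 and 0.0564). They passed as lower in 7 and 8 of 14 alternatives. Kdm1a had 113, 103, 114, 106 and 112 CPM in IgG and 89.3, 93.1, 97.2, 87.1 and 93.0 CPM in Musashi IP, without overlap. The lowest ratio of all members, -0.58 ± 0.23, belonged to Kdm4d and rested on 10 to 21 counts a library (edgeR adjusted p = 0.0845).

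Of the 9 zinc-dependent deacetylases 1 was higher, 1 was lower and 7 did not pass. Hdac11, the only class IV deacetylase, had 75.2, 82.0, 68.1, 72.0 and 74.2 CPM in IgG and 122, 122, 135, 257 and 167 CPM in Musashi IP. The groups did not overlap, and the means were 74.3 ± 5.07 and 161 ± 57.1 CPM (SD, n = 5 each). The log2 ratio was 1.05 ± 0.17 (2.07-fold, edgeR adjusted p = 0.00511) and was 0.86 without lysate 6. Of its exonic length, 15.4% overlaps Gm44002, a transcript model on the opposite strand, and the strand setting of the counting is not given in the sources used here. The same limit holds for Kmt2e, of which 9.31% overlaps the protein-coding Srpk2 on the opposite strand, and for Prmt8, of which 8.55% overlaps the antisense Gm42738. In all, 24 members overlap exons of another gene, 9 of them over more than 5% of their length. Hdac11 also had the class's highest level per length, 19.3 ± 1.32 CPM per kb of exon in IgG, beside 19.3 for Hdac3.

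Hdac10, known as a polyamine deacetylase, went the other way, with 39.1, 43.5, 36.7, 44.1 and 40.5 CPM in IgG and 36.0, 35.2, 29.6, 23.7 and 28.4 CPM in Musashi IP. The groups did not overlap, and the Musashi IP library of lysate 6 was the lowest. The log2 ratio was -0.43 ± 0.13 (0.743-fold, edgeR adjusted p = 0.0367). Class I members Hdac1, Hdac2 and Hdac3 had log2 ratios from -0.21 to -0.04, class IIa members Hdac4, Hdac5, Hdac7 and Hdac9 from -0.14 to 0.24, and none of these 7 passed.

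None of the 7 sirtuins passed in either direction, with log2 ratios from -0.27 to 0.13. DESeq2 also called 0, and at an unadjusted p under 0.05 edgeR had 0 higher and 1 lower. Sirt7, a nucleolar deacylase and the highest sirtuin per length (12.2 CPM per kb of exon in IgG), had 70.6, 59.7, 70.0, 59.5 and 53.0 CPM in IgG. In Musashi IP it had 69.3, 60.0, 53.8, 40.5 and 39.7 CPM, and the groups overlapped. Its log2 ratio of -0.27 did not pass (edgeR adjusted p = 0.106), although it passed in 3 of 14 alternatives.

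Setd7, Hdac11 and Prmt5 kept their calls in all 14 alternatives, with log2 ratios of 1.11 to 1.51, 0.86 to 1.19 and 0.56 to 0.88. The 4 lower calls all ended when lysate 5 or lysate 7 was left out and when the lysate was not modelled. Prmt9, Kdm3a and Kmt2e also lost their calls without lysate 2 and with no low-count filter, 5 of 14 alternatives each, against 3 of 14 for Hdac10. Some markers of other cell types were called higher and some lower in the same libraries, as given above, while endothelial and mural or fibroblast markers were not called. The part of cell types in the higher and lower members was not tested.

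The spread of the ratios differed between lysates. The SD of the members' log2 ratios was 0.602 in lysate 6 and 0.219 to 0.368 in the other lysates. Setd7 had log2 ratios of 0.94, 0.70, 1.51, 2.36 and 1.28 in lysates 2, 3, 5, 6 and 7, and Hdac10 had -0.12, -0.31, -0.31, -0.89 and -0.51. Over the 57 members, Pearson's r between lysates, which share a table and an antibody mixture, ran from 0.447 (lysates 2 and 6) to 0.868 (lysates 5 and 6). In all 5 lysates 7 members had a ratio above 0 (12.3%, against 31.1% of protein-coding genes) and 12 a ratio below 0 (21.1%, against 12.7%), while 38 did not keep 1 sign (66.7%, against 56.2%).

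**Figure D3:**
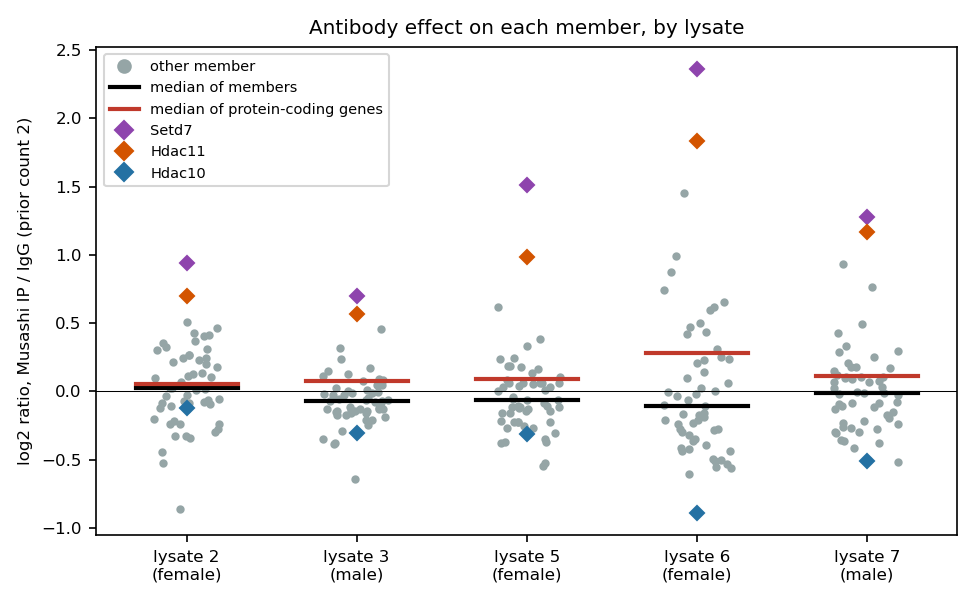
Log2 ratio of Musashi IP to IgG (vertical axis) of every member in each of the 5 lysates, with Setd7, Hdac11 and Hdac10 as diamonds and lines at the medians of the members (black) and of protein-coding genes (red); a prior count of 2 was added. The spread is widest in lysate 6, where Setd7 reaches 2.36 and Hdac10 -0.89.

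The antibody effect was compared between the 3 female and 2 male lysates. The edgeR test called 0 members and 0 of 20550 genes (0%) as different between the sexes, while 187 genes and 0 members had an unadjusted p under 0.05, and DESeq2 called 0 genes. Of the members, Setd7 differed most, with log2 ratios of 1.60 ± 0.26 in females and 0.99 ± 0.31 in males, a difference of 0.61 ± 0.40 (edgeR adjusted p = 1). In 50 of 57 members the ratio had the same sign in both sexes.

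Levels in IgG were also compared between the sexes, where 945 of 20987 genes (4.5%) differed by edgeR and 0 members did. An unadjusted p under 0.05 was reached by 4 members and 3496 genes, and DESeq2 called 0 members. Hdac9, a class IIa deacetylase, had 21.7, 36.6 and 37.5 CPM in female IgG libraries and 44.9 and 59.9 CPM in male ones, without overlap (log2 difference female minus male -0.72 ± 0.24, edgeR adjusted p = 0.146). Prmt3, an arginine methyltransferase of a ribosomal protein, had 62.4, 61.2 and 58.7 CPM in females and 41.1 and 45.6 CPM in males, also without overlap (0.48 ± 0.16, edgeR adjusted p = 0.147). The other two were Prmt7 (0.45 ± 0.18, edgeR adjusted p = 0.226) and Prmt8 (-0.88 ± 0.38, edgeR adjusted p = 0.27). These are levels in the control precipitate, with no input library beside them. In pooled glands, fewer cells of a type, less RNA per cell and a different recovery with IgG cannot be told apart.

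Musashi elements were present in members of every outcome. At least 1 site was present in 45 of 57 members (78.9%, 95% Wilson interval 66.7 to 87.5) and in 71.2% of 14106 protein-coding 3′ UTRs, with 87.2% for the protein-coding genes that were higher and 68% for those that were lower. All 5 higher members had a site, as did 3 of 4 lower members and 37 of 48 that did not pass. The median number of sites was 3 in the higher members, 1 in the lower members and 1.5 in those that did not pass. It was also 3 in the protein-coding genes that were higher and 1 in those that were lower. Density was 1.36 sites per kb in higher members, 1.7 in lower members, 1.79 in those that did not pass and 1.98 over all protein-coding 3′ UTRs. The 9 members with 5 or more sites included 0 calls, with a median log2 ratio of -0.08, while the 20 members with 2 to 4 sites included 4 higher and 1 lower. With 5 higher and 4 lower among all 57 members, few calls could fall in a group of 9. The share of calls among all protein-coding genes with as many sites was not computed, so no relation to site number is drawn from these counts.

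The median 3′ UTR was 1428 bases in the higher members, 537 in the lower members and 1096.5 in those that did not pass. Over protein-coding genes it was 1221.5 bases, with 2069.5 for those called higher and 739 for those called lower. Of the higher members, Setd7 (5988), Setd3 (1443) and Hdac11 (1428) lay above the median of all members, 1051. Prmt5 (608) and Prmt8 (814) lay below it. The longest 3′ UTR, that of Kdm7a (6588), belonged to a member that did not pass. Over the 57 members Spearman's rho of the log2 ratio was 0.44 with 3′ UTR length and 0.301 with the number of sites (Pearson's r 0.397 and 0.168). The number of sites rises with length, and genes are not independent replicates, so these are descriptions. For exonic length, GC content and IgG level rho was 0.081, 0.093 and 0.025.

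**Figure D4:**
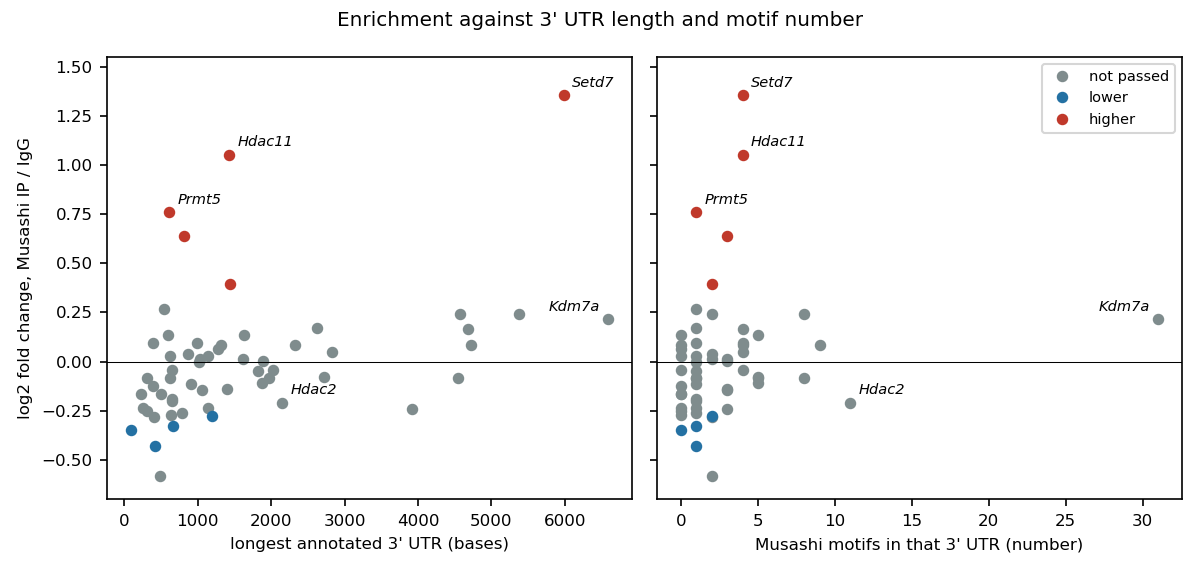
Log2 ratio of Musashi IP to IgG (vertical axis) of the 57 members against 3′ UTR length in bases (left) and number of Musashi elements (right); red points passed as higher, blue as lower, grey did not pass. Setd7 combines 5988 bases with 4 elements, whereas Kdm7a with 31 elements lies at 0.22.

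Genes that act with these enzymes were taken from lists of their complexes. Of 111 tested partner genes 23 were higher (20.7%) and 2 lower (1.8%), with a median log2 ratio of 0.05. These shares lie below the 25.7% higher and 4.01% lower of all protein-coding genes, and no test compared the lists with the enzymes. Of 10 subunits of the COMPASS and MLL complexes, in which Kmt2a to Kmt2d and the Setd1 enzymes work, 4 were higher (40%) and 0 lower. Some of these subunits are common to all such complexes and others belong to 1 kind. Wdr5 (1.04 ± 0.15), Wdr82 (1.01 ± 0.18), Rbbp5 (0.94 ± 0.13) and Men1 (0.47 ± 0.11) rose on the log2 scale, whereas the common core subunits Ash2l (-0.09) and Dpy30 (0.15) did not pass. Of the genes Kmt2a to Kmt2e 0 were higher and 1 was lower, namely Kmt2e, described above as a relative of the mixed-lineage leukemia enzymes. DESeq2 gave the same counts for the subunits, 4 higher and 0 lower.

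Of 29 subunits of HDAC corepressor complexes 8 were higher (27.6%, near the protein-coding background) and 0 lower by edgeR, and 7 and 0 by DESeq2. Rcor1, the CoREST scaffold that binds Kdm1a and class I deacetylases, had a log2 ratio of 1.37 ± 0.22, beside -0.25 for Kdm1a, -0.17 for Hdac1 and -0.21 for Hdac2. Sap18 of the Sin3 complex had 1.19 ± 0.23. Of 23 Polycomb subunits 5 were higher (21.7%, below that background) and 0 lower by edgeR, and 4 and 0 by DESeq2. At an unadjusted p under 0.05 edgeR had 11 higher and 0 lower. The share of all genes past that unadjusted threshold was not computed for Musashi IP against IgG, here or for the other lists and classes. Rybp of PRC1 had the highest ratio, with 22.9 ± 9.05 CPM in IgG and 102 ± 65.5 CPM in Musashi IP (SD, n = 5 each). Its log2 ratio was 2.01 ± 0.21 (edgeR adjusted p = 0.00336).

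Of 21 acetyltransferases and coactivators 5 were higher (23.8%), led by Ing5 (0.997 ± 0.17), and 1 was lower (4.76%), Ep300 (-0.28 ± 0.08). These shares lie near the protein-coding background of 25.7% higher and 4.01% lower. Of 20 other methyltransferases 0 were higher and 1 was lower (5%). The lower gene was Suv39h2, which trimethylates lysine 9 of histone H3 (-0.48 ± 0.15), whereas DESeq2 called 0 in either direction. At an unadjusted p under 0.05 edgeR had 2 higher and 2 lower in that list. Of 8 DNA methylation enzymes 1 was higher (12.5%), Tet3 (0.36 ± 0.09). Ing5, Rybp, Wdr5, Wdr82, Rbbp5, Rcor1 and Sap18 kept their calls in all 14 alternatives, and the other 11 of the 18 partner genes followed through the settings lost theirs in at least 1.

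**Figure D5:**
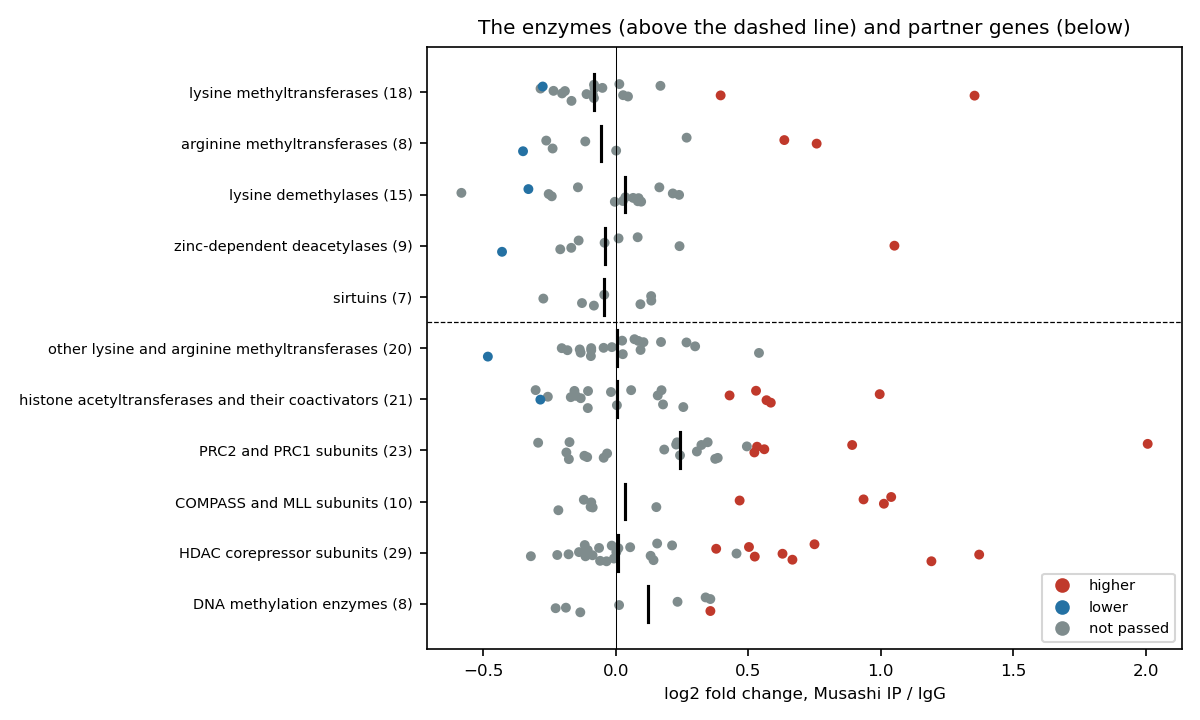
Log2 ratio of Musashi IP to IgG (horizontal axis) of the enzymes by class (above the dashed line) and of the partner genes in 6 lists (below), with the number of genes in brackets, each median as a black line, red for higher, blue for lower and grey for not passed. Rybp reaches 2.01, and 23 partner genes passed to the right of 0 against 2 to the left.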

How the data were processed

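The deposited table holds raw counts per gene, made by the authors with FastQC 0.11.8, Trimmomatic 0.39 and STAR 2.7.1a on GRCm39, per the submitters' processing notes. Neither the counting program nor its strand setting is given there. Symbols and 3′ UTRs came from GENCODE M21 (94.1% of 55416 rows matched). Genes kept by edgeR's filter were scaled by TMM and tested with edgeR 4.0.16 (R 4.3.3), quasi-likelihood, with the lysate as a block and Benjamini-Hochberg adjustment over 20550 genes. Code was tested on simulated data. Named members are, per class, up to 4 that passed in each direction, both Ezh genes and the highest per length. Members and lists were chosen with earlier results of these data known. Kdm1a, Kdm4d and the genes of the sex comparison were named after their values were seen. The protocol splits each lysate between antibodies, which pairs the libraries. Deviations of same-numbered libraries correlated at r 0.523 to 0.778, above any other number, except in lysate 6 (0.186, against 0.415 with another number). Lysates were prepared on separate occasions. Alternatives used DESeq2 1.42.0, limma 3.58.1, other scalings and filters, and left out each lysate.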

Additional observations from a re-analysis of the deposited data

Results flagged for a closer look

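In 5 genes that act with the histone enzymes the Musashi IP library of lysate 6 stood apart from the other 4 Musashi IP libraries. Ing5 had 131.1 CPM there against 56.01 to 72.8 in the others, and Kat14 had 93.24 against 50.69 to 57.51. Naa60 had 73.56 CPM against 43.04 to 48.7, Wdr82 had 293 against 111.9 to 164.1, and Rcor1 had 237.2 against 84.46 to 123.9. A gap this wide arises by chance in about 5% of groups, and 5 of the 100 groups examined showed one, where chance gives 5 if groups are independent. These groups shared libraries and genes, and all 5 gaps lay in the same library, so their number cannot be set against chance. The enzymes examined were those named by rule, and none of the flagged values belonged to them. The rest of the 57 enzymes were not examined for such gaps.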

How the results depend on the processing

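Across 14 alternatives, the number of members higher in Musashi IP (5 as reported) was 3 with library totals, with DESeq2, with a mean of at least 2 CPM and with length and GC offsets, and 3 to 6 when a lysate was left out. Of all genes, 18.5% were higher as reported, and 15.3%, 17.1%, 18.7% and 16.8% in those settings in the same order. Leaving out a lysate gave 8.11% to 22.6%. The number lower (4 as reported) was 15 with library totals, 11 with the 2 CPM filter, 10 with protein-coding genes only, 13 with length and GC offsets and 1 with no low-count filter, and 0 to 7 when a lysate was left out. Without the lysate as a replicate block 3 were higher and 0 lower, so the block changed these counts. The share of genes tested that were lower moved as well, from 8.4% as reported to 19.8% with library totals and 17.6% with the 2 CPM filter. It was 9.13% with protein-coding genes only, 9.7% with length and GC offsets and 3.93% with no low-count filter. Without the block it was 0.856%, and 0.905% to 10.1% when a lysate was left out. The median log2 ratio was -0.22 with library totals, -0.14 with the 2 CPM filter, -0.14 with protein-coding genes only and -0.18 with length and GC offsets, and ran from -0.12 to -0.012 when a lysate was left out. Kdm4a turned to -0.11 with library totals, -0.030 with the 2 CPM filter, -0.033 with protein-coding genes only, -0.17 with length and GC offsets, -0.019 without lysate 3 and -0.014 without lysate 7, and ran up to 0.11 when another lysate was left out. Kmt2a turned to 0.0028 without lysate 6. With no low-count filter 1 member, Hdac9, differed between the sexes in IgG. The cause was not tested. Members with few counts, such as Kdm4d and Prmt8, are limited by depth.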
